A study of Arabidopsis thaliana with 6 samples.

Results

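Transcripts of 4 genes that Arabidopsis thaliana seeds express late in their development were followed in seeds of a double mutant that carries T-DNA in each of the genes for the malate dehydrogenase of peroxisomes. The genes are AT1G54870, which encodes a dehydrogenase with a Rossmann fold, AT1G04560, which encodes an AWPM-19-like membrane protein, AT3G54940, which encodes a cysteine protease of the papain family, and AT2G21820, annotated as a seed maturation protein. They were selected by their difference between the genotypes on these same arrays, as seed genes that are neither storage protein nor late embryogenesis abundant (LEA) genes. They are 4 of the 13286 loci named by a probe set that names 1 gene, and each has 1 probe set. Because that difference chose them, their own values are given as a description, with no test.

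There were 6 ATH1 arrays, 1 per sample. The double mutant, with 3 arrays, carries T-DNA insertions in AT2G22780 (PMDH1) and AT5G09660 (PMDH2), and the wild type, with 3 arrays, descends from a plant heterozygous for a T-DNA insertion and is labelled Col-0. The labels give whole seeds at growth stage 0.7 for both, and how far germination had gone was not scored here. Both were taken after 2 days of stratification at 4 °C, from agar with half-strength Murashige and Skoog salts and 1% sucrose at 22 °C in continuous light. The labels do not say whether replicates came from separate plants or seed batches, so the spread on which the p-values rest may be technical. With 3 arrays a group, their number limits every value's precision.

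In the last phase of seed development, embryos of Arabidopsis fill with reserves and acquire tolerance to drying, under abscisic acid and transcription factors such as ABI3 and ABI5. The transcripts made then are stored in the dry seed and are lost as the seed takes up water and germinates. Late seed genes are best known for storage proteins, oleosins and LEA proteins, but they also include enzymes, membrane proteins and proteases, as the 4 genes here do.

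All 4 transcripts were higher on every mutant array than on any wild-type array. Among the 13648 probe sets tested, 13.1% were higher in the mutant without overlap of the groups, and 0.154% were higher by at least 4-fold on the scale used here. That scale is the difference of mean log2(signal + 10), mutant minus wild type. It understates the change of transcripts with low signal, and each fold change given with an SE is on it. In whole seeds, more cells with a transcript and more transcript per cell cannot be told apart.

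AT1G54870 encodes a protein of the short-chain dehydrogenase family, whose members use NAD(H) or NADP(H) to oxidise alcohols or reduce carbonyl groups. Its signals were 174, 188 and 166 in mutant replicates 1, 2 and 3, against 18.3, 11.3 and 16.9 in wild-type replicates 1, 2 and 3. The mutant arrays lay within 1.13-fold of each other and the wild-type arrays within 1.61-fold, with wild-type replicate 2 the lowest. The wild-type signals were dim, so ratios of signals are imprecise for this gene. Mean signals were 176 ± 11.0 in the mutant and 15.5 ± 3.69 in the wild type (SD, n = 3 each), a ratio of 11.3. The log2 fold change was 2.87 (SE 0.15), or 7.32-fold.

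AT1G04560 belongs to the AWPM-19-like family, named for a wheat plasma membrane protein that abscisic acid induces. A rice protein of the family carries abscisic acid into cells. The signals of AT1G04560 were 244, 258 and 278 on the mutant arrays, against 30.8, 31.9 and 15.2 on the wild-type arrays. Wild-type replicate 3 stood lower than the other wild-type arrays, at 0.485 of their mean. Mean signals were 260.1 ± 17.1 in the mutant and 26.0 ± 9.34 in the wild type (SD, n = 3 each), and the closest pair of arrays differed 7.66-fold. The log2 fold change was 2.94 (SE 0.17), or 7.70-fold, and 2.71 without wild-type replicate 3.

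AT3G54940 encodes a papain-type protease of the same subfamily as RD19. Papain-type proteases take part in the breakdown of reserve proteins in germinating seeds of many plants. Its signals were 157, 196 and 150.3 on the mutant arrays, against 28.6, 30.9 and 14.3 on the wild-type arrays. Again wild-type replicate 3 was the low one, at 0.481 of the mean of the other wild-type arrays, and mutant replicate 2 was the highest array. Mean signals were 168 ± 24.4 in the mutant and 24.6 ± 8.98 in the wild type (SD, n = 3 each), and the closest arrays differed 4.87-fold. The log2 fold change was 2.39 (SE 0.19), or 5.23-fold, and 2.15 without wild-type replicate 3.

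AT2G21820 had the lowest fold change of the 4 and the tightest wild-type values. Its signals were 85.7, 95.3 and 81.9 on the mutant arrays, against 15.7, 13.6 and 13.2 on the wild-type arrays. The wild-type arrays lay within 1.19-fold of each other and the mutant arrays within 1.16-fold. Mean signals were 87.6 ± 6.89 in the mutant and 14.2 ± 1.36 in the wild type (SD, n = 3 each), and the closest arrays differed 5.21-fold. The log2 fold change was 2.01 (SE 0.15), or 4.04-fold. Wild-type signals were dim here too, with a mean below the 15.5 of AT1G54870. Ratios of signals are therefore imprecise for AT2G21820 as well.

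**Figure D1:**
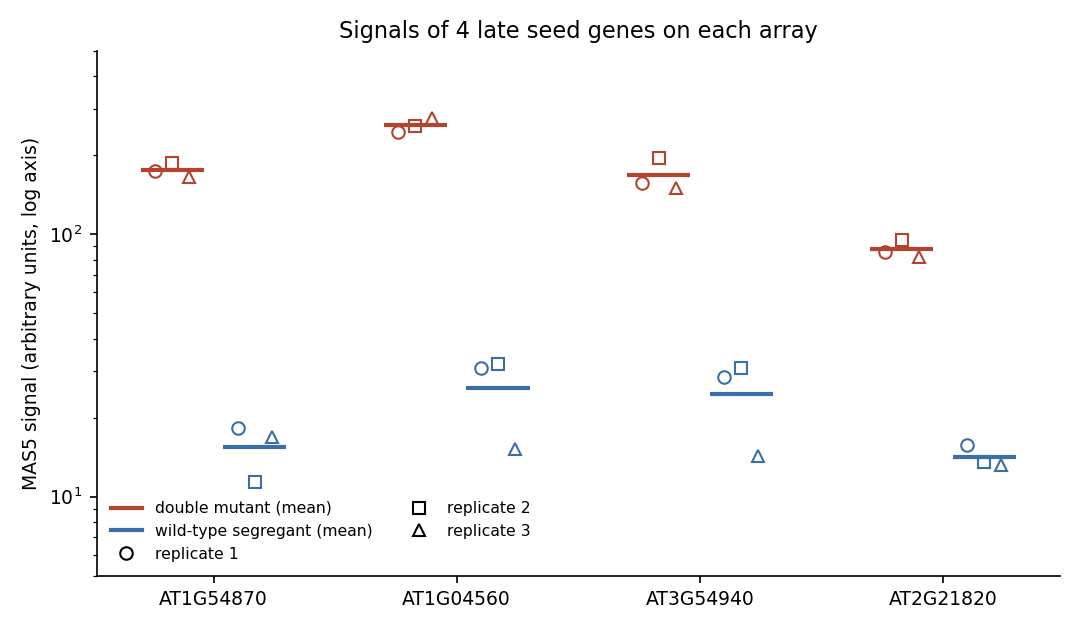
Signal of each of the 4 genes on every array (log axis, arbitrary units), with the double mutant left of the wild-type segregant. Bars are group means and marker shapes are replicate numbers. All mutant points of a gene lie above all its wild-type points, and wild-type replicate 3 (triangles) is low for AT1G04560 (15.2) and AT3G54940 (14.3).

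The fold changes of AT1G04560 and AT1G54870 could not be ordered. They differed by less than their SE, and leaving out 1 array at a time gave 2.71 to 3.07 for AT1G04560 and 2.75 to 2.95 for AT1G54870. With the same arrays left out, AT3G54940 ranged from 2.15 to 2.53 and AT2G21820 from 1.96 to 2.06. These ranges did not overlap with each other or with those of the first pair. They come from fits that share most of their arrays and do not measure uncertainty, so they do not order the genes. Without a pseudocount all 4 values were larger, and for AT1G54870 (3.53) and AT2G21820 (2.63) by over 1.5 times in fold. AT1G54870 then stood above AT1G04560 (3.40), while AT3G54940 was at 2.84 (SE 0.24) beside 2.63 (SE 0.20) for AT2G21820. The ratios of mean signals of AT3G54940 and AT2G21820 were 6.81 and 6.18.

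The low wild-type signals also bear on how the genes came to be tested. A probe set was tested if its mean log2(signal + 10) over all 6 arrays reached 5.02. Wild-type means were 5.13 for AT1G04560 and 5.08 for AT3G54940, above this limit, but 4.66 for AT1G54870 and 4.59 for AT2G21820, below it. AT1G54870 and AT2G21820 passed only through their mutant signals, so a difference between the groups was needed for them to be tested at all.

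The profiles over the 6 arrays were compared after centring each gene on its own mean log2 value, with the root mean square (RMS) difference as the measure of likeness. Among the 4 genes the most alike were AT3G54940 and AT2G21820 (RMS 0.290) and AT1G04560 and AT3G54940 (0.309). The least alike were AT1G04560 and AT2G21820 (0.520), which differ in fold change and in wild-type replicate 3. AT1G54870 was 0.323 from AT1G04560, 0.401 from AT3G54940 and 0.443 from AT2G21820. The profiles were not scaled, so these distances depend on the size of the genotype difference. That difference chose the 4 genes, so the order of likeness is no separate result. Within the wild type AT3G54940 (28.6, 30.9 and 14.3) was closer to AT1G04560 (30.8, 31.9 and 15.2) than to AT2G21820 (15.7, 13.6 and 13.2).

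A defensin, a storage protein and a LEA gene were nearest to AT1G54870 among the 7307 tested probe sets that name 1 gene. Closest was LCR67, the defensin gene, at RMS 0.232, with signals of 240.3, 250.2 and 287 in the mutant and 45.0, 32.9 and 36.0 in the wild type. PAP85, a vicilin-like storage protein gene, followed at 0.291, and AtLEA4-1, a LEA gene, at 0.313. PAP85 was also nearest to AT1G04560 (0.266), with signals of 210, 277 and 199 in the mutant and 20.8, 14.4 and 10.02 in the wild type. After it came AT3G54940 and AT1G54870, the other genes described here.

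For AT3G54940 the nearest gene was AtLEA4-1 (RMS 0.217), whose signals were 129, 171 and 155 in the mutant and 28.9, 19.2 and 17.3 in the wild type. AT5G07330 (0.254) came next, with 55.1, 61.8 and 49.1 in the mutant and 9.95, 10.2 and 3.30 in the wild type, and then the dehydrin gene LEA (AT2G21490, 0.264). The closest match of all was between AT2G21820 and AT3G53980, a gene of the lipid-transfer protein and 2S albumin superfamily, at RMS 0.107. AT3G53980 had signals of 151.3, 172 and 136 in the mutant and 41.7, 29.0 and 28.9 in the wild type, a log2 difference of 1.93 (SE 0.15) beside 2.01 for AT2G21820. LEA (0.149) and AT5G07330 (0.186) followed. The nearest genes were picked for a like difference between the genotypes, so that difference is no separate result.

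**Figure D2:**
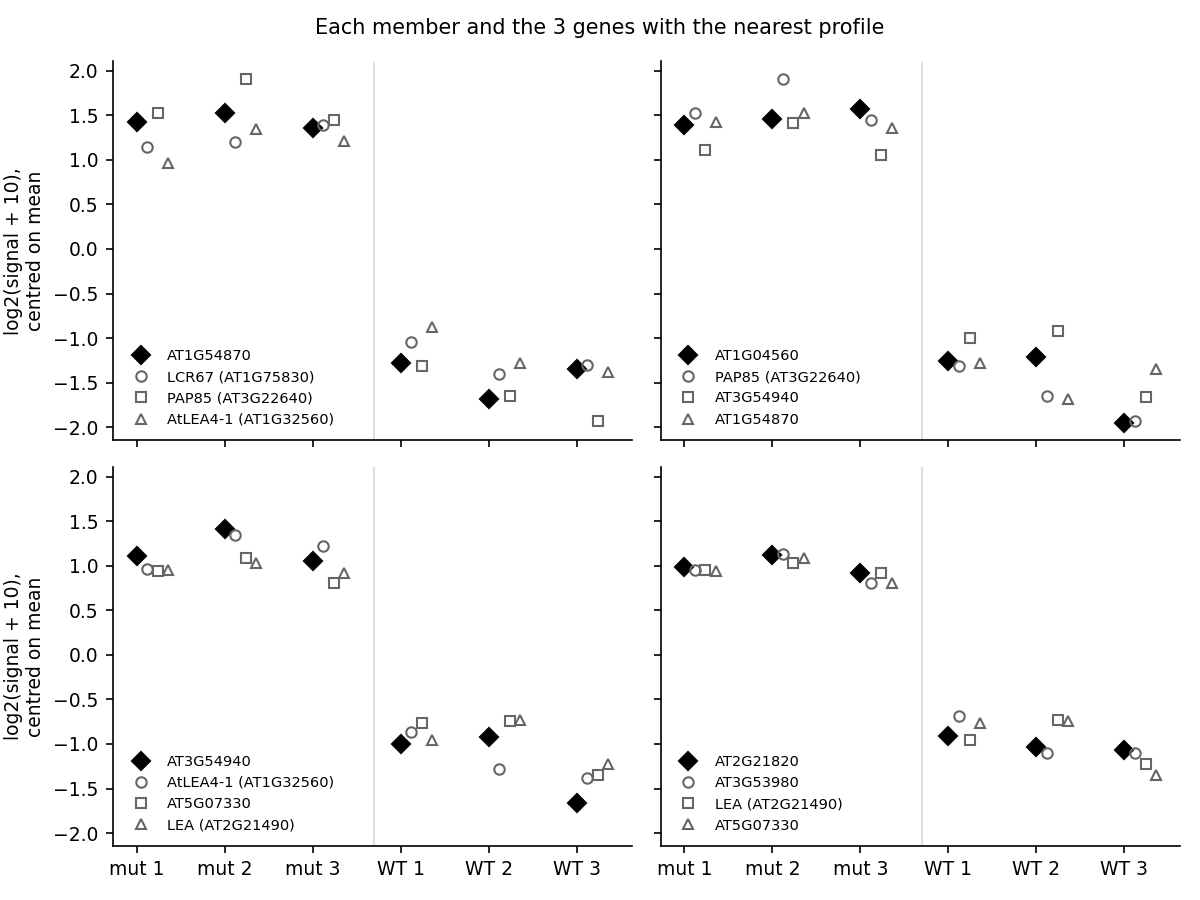
Centred log2(signal + 10) on each array for each of the 4 genes (filled diamonds) and the 3 genes with the nearest profile (open symbols, shifted sideways for legibility), mutant arrays left of wild-type arrays. The points of AT2G21820 and AT3G53980 nearly coincide (RMS 0.107), while the neighbours of AT1G04560 lie farther off (0.266 to 0.323).

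Relatives of the 4 genes were tested in limma over all probe sets, where 3.78% of probe sets were called at an adjusted p under 0.05, 1.96% as higher and 1.82% as lower in the mutant. Of 53 other short-chain dehydrogenases listed, 31 had a probe set and 23 were tested, of which 2 rose, 0 fell and 21 did not pass (7 of the 23 had an unadjusted p under 0.05). Their median log2 fold change was −0.09, beside 0.05 over all tested probe sets. AT3G05260 rose most, with signals of 41.0, 57.2 and 45.4 in the mutant against 17.8, 8.45 and 8.86 in the wild type. The groups did not overlap, and its log2 fold change was 1.43 (SE 0.20, limma adjusted p = 0.000588). Its wild-type mean log2 value of 4.41 was below the filter's limit of 5.02, so it too was tested only through its mutant signals. With no filter it was called as well (adjusted p = 0.0259), and it was below the limit of the stricter filter.

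AT4G13180, another short-chain dehydrogenase gene, rose by 0.58 (SE 0.13, limma adjusted p = 0.018), with signals of 597, 497 and 465 in the mutant and 404, 311 and 317 in the wild type. The call did not hold when mutant replicate 1 (0.48) or 2 (0.61) was left out, nor with wild-type replicate 2 (0.52) or 3 (0.53) left out, nor without the filter on dim probe sets or the intensity trend. AT1G07440 and PORB, the gene of a protochlorophyllide oxidoreductase, did not pass, at −0.40 (SE 0.11, adjusted p = 0.0642) and −0.30 (SE 0.10, adjusted p = 0.137), and both passed after median centring of the arrays (−0.49 and −0.38).

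Of 30 other papain-type proteases listed, 17 had a probe set and 13 were tested. Of these 1 rose, 0 fell and 12 did not pass (4 of the 13 had an unadjusted p under 0.05), and their median log2 fold change was 0.15. AT3G19390, a protease gene of the granulin-repeat type, had signals of 194, 185.5 and 153 in the mutant and 114, 108 and 139 in the wild type. Its log2 fold change of 0.52 (SE 0.14, limma adjusted p = 0.0447) was just inside the threshold. Quantile normalization (0.48) and median centring (0.44) each put it outside, as did dropping the filter or the intensity trend. It was also outside with mutant replicate 1 (0.46) or 2 (0.49) left out, and with wild-type replicate 1 (0.49) or 2 (0.46) left out. AT4G16190, a relative of the RD19 type, did not pass at 0.32 (SE 0.11, adjusted p = 0.133), nor did AT1G29090 at 0.38 and AT2G34080 at 0.43. AT1G29090 (0.61) and AT2G34080 (0.69) passed without wild-type replicate 1. The other tested proteases ranged down to −0.15. AT3G54940 was chosen for its difference, and its relatives were listed with earlier results of these arrays known, so nothing follows from their order.

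Of the 3 other AWPM-19-like genes, 2 had a probe set. AT5G18970, with signals of 27.5, 28.1 and 34.9 in the mutant and 36.5, 37.9 and 22.7 in the wild type, was the only one tested. It did not pass in limma (log2 fold change −0.06, SE 0.19, adjusted p = 0.907), and its sign turned without wild-type replicate 1 (0.02) or 2 (0.04). AT1G29520 was too dim to be tested, at 17.7, 19.3 and 17.5 in the mutant and 12.3, 12.6 and 17.3 in the wild type. AT2G21820 had no listed relatives.

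**Figure D3:**
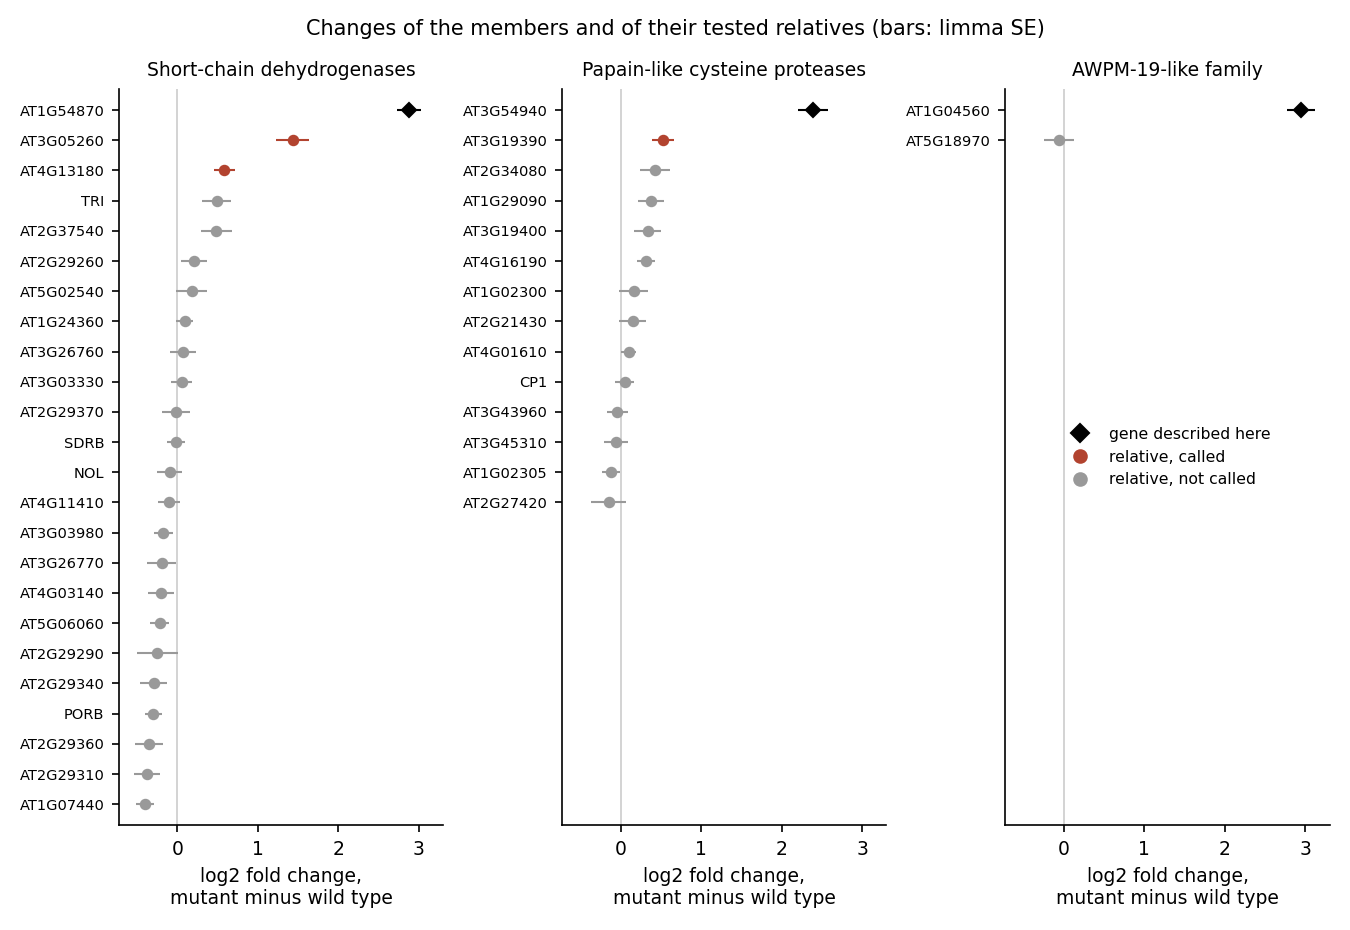
Log2 fold change (double mutant minus wild type, bars are limma SE) of AT1G54870, AT3G54940 and AT1G04560 (diamonds) above their tested relatives (circles, red where called). The 3 genes were chosen for a large difference. Their relatives, listed with earlier results of these arrays known, range from −0.40 to 1.43 (AT3G05260).

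Other genes of late seed development were compared by lists, which were chosen with results of these arrays already known. Of 25 enzymes, channels, chaperones and other late seed genes outside the storage and LEA classes, 3 had a probe set and 2 were tested. One was AT3G05260, given above, and the other AT5G01670, an aldo-keto reductase family gene, which did not pass in limma (0.38, SE 0.19, adjusted p = 0.321). Of the 18 listed regulators of seed maturation only EEL, a bZIP factor gene of the ABI5 family, had a probe set. It was too dim to be tested, and its signals overlapped, with 18.6, 17.6 and 19.4 in the mutant and 29.0, 14.6 and 19.1 in the wild type.

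Storage protein, oleosin and LEA genes were counted without the filter on dim probe sets, since many are dim in the wild type and passed that filter only through the mutant. Without it 1.00% of all probe sets were called in limma, 0.558% as higher in the mutant. Of the 7 storage protein and oleosin genes with a probe set 3 rose, and of the 28 LEA genes 11 rose, with 0 decreases in either list. Median log2 fold changes were 0.52 and 0.89, beside 0.03 over all probe sets. With the filter 3 of 5 and 9 of 15 were called, but the wild-type means of 2 of those 3 and 6 of those 9 were below its limit, so these counts depend on the difference itself. Beside the 4 genes here (2.01 to 2.94), PAP85 stood at 3.26, LEA18 at 2.64, AtLEA4-1 at 2.35 and the dehydrin gene LEA at 1.94. AT2G28490, a cupin family gene, was at 1.83, LEA4-5 at 1.73, AT3G01570, an oleosin gene, at 1.49 and the dehydrin gene LTI30 at 1.17. Without the filter these list genes were all called in limma, at adjusted p-values from 0.00022 (PAP85) to 0.029 (LEA4-5). The wild-type means of PAP85, AtLEA4-1, LEA, AT2G28490 and LEA4-5 were below the filter's limit. M17 had all its wild-type signals under the pseudocount and was at least 8.14-fold higher on the same scale with these set at 10. OLEO3, another oleosin gene, was at −0.30 and did not pass in limma without the filter (adjusted p = 0.433) or with it (adjusted p = 0.309).

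Within the wild type, the lowest and the highest array were noted for 17 genes, the 4 described here and the 13 called in these lists. Wild-type replicate 3 was the lowest of the 3 arrays for 13 of the 17 and wild-type replicate 1 for 0, while replicate 1 was the highest for 11. The order was not shared by all, since AT1G54870 had wild-type replicate 2 the lowest, and AT1G04560 and AT3G54940 had it the highest. How often replicate 3 was the lowest over all probe sets was not counted. Without that share the count cannot be read as a trait of these 17 genes. Wild-type replicate 3 also had the lowest median signal over all probe sets, 34.1 against 36.1 and 36.5 in the other wild-type arrays and 37.7 to 39.0 in the mutant. Its part in the differences was not tested, beyond the values without it given above.

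Because AT3G54940 encodes a protease, genes of storage protein breakdown and protease inhibitors were examined as well. Of the 10 tested, 1 rose, 0 fell and 9 did not pass (4 of the 10 had an unadjusted p under 0.05). BETA-VPE, whose product processes storage proteins in seed vacuoles, had signals of 99.1, 123 and 109.6 in the mutant and 78.2, 64.3 and 65.6 in the wild type. Its log2 fold change was 0.60 (SE 0.14, limma adjusted p = 0.0201), and the call depended on the filter. It also failed with mutant replicate 2 (0.53) or 3 (0.60) left out and with wild-type replicate 2 (0.56) or 3 (0.57) left out. DELTA-VPE, known from the seed coat, was at 0.58 (SE 0.21, adjusted p = 0.161) and AT1G62290, an aspartic protease gene, at 0.41 (SE 0.13, adjusted p = 0.108). Both passed without wild-type replicate 1 (0.91 and 0.54). AT5G47550, a cystatin gene, was at −0.26 (adjusted p = 0.219).

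The only tested gene of the abscisic acid response list was COR47, a dehydrin gene, which rose by 0.99 (SE 0.18, limma adjusted p = 0.00528), with signals of 490, 547 and 467 in the mutant and 346, 258 and 169 in the wild type. Wild-type replicate 3 was the lowest here too, and without it the log2 fold change was 0.72. The call was lost without the filter.

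Markers of other tissues and stages were followed beside the 4 genes. The 3 dividing-cell genes measured, of 7 listed, had a summed signal between 364 and 395 on the mutant arrays, against 350.4 to 409.7 on the wild-type arrays. The 2 root hair genes, of 4 listed, summed to between 535 and 642 on the mutant arrays, against 541 to 684 on the wild-type arrays. Neither list had a call in limma, and 0 of these 5 genes reached an unadjusted p under 0.05, with HTR12 at 0.20, AUR1 at −0.06, PRL at 0.04, EXPA7 at −0.13 and EXPA18 at 0.04. PRL and EXPA18 turned negative, each to −0.05, after median centring, and PRL was at −0.0011 under quantile normalization. ICL and SDP1, genes of oil reserve use after germination, did not pass, at −0.04 and 0.14, and ICL turned to 0.05 under quantile normalization. ICL was bright in both groups, with mean signals of 4292 in the mutant and 4441 in the wild type. The endosperm list had 0 of 6 genes with a probe set, so endosperm was not followed.

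Photosynthesis genes encoded in the nucleus were lower in the mutant where they passed. Of the 6 tested, out of 25 listed, 4 fell and 2 did not pass (6 of the 6 had an unadjusted p under 0.05). Log2 fold changes of the 6 ran from −0.80 to −0.23. Their summed signal lay between 7269 and 8264 on the mutant arrays, against 9988 to 11326 on the wild-type arrays. LHCB4.2 and LHCB4.1, light-harvesting protein genes, were at −0.80 and −0.50, PSAN, a photosystem I gene, at −0.56 and RCA, the rubisco activase gene, at −0.49. Calls of LHCB4.1 and RCA were lost without the filter or the intensity trend. LHCB4.1 also lost its call with quantile normalization (−0.36), with mutant replicate 2 left out (−0.38) and with wild-type replicate 2 left out (−0.47). These levels differ between the genotypes in the direction opposite to those of the 4 seed genes, and their part in the result was not tested.

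Genes beside each of the 4 on the chromosome were examined because AT2G21820 lies on chromosome 2, as does the disrupted AT2G22780. AT1G54870, AT1G04560 and AT3G54940 lie on chromosomes 1 and 3, which carry neither insertion. The 10 nearest tested genes on each side were taken, 20 per gene, and among tested probe sets that name 1 gene 3.26% were called in limma. Around AT1G54870 0 of 20 were called (2 with an unadjusted p under 0.05), with log2 fold changes from −0.32 to 0.39. Around AT3G54940 0 of 20 were called (2 with an unadjusted p under 0.05), from −0.34 to 0.34. Around AT1G04560 1 of 20 was called, AT1G04770, a gene known to respond to sulphur deficiency, at −0.46 (SE 0.11, adjusted p = 0.0331). That call was lost without the intensity trend and without any 1 array except wild-type replicate 1 (−0.42 without mutant replicate 1, −0.45 without 2, −0.49 without 3, −0.45 without wild-type replicate 2 and −0.44 without 3).

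Around AT2G21820 1 of 20 neighbours was called, and it was another late seed gene. This was the dehydrin gene LEA, the seventh tested gene on the side away from AT2G22780, with signals of 85.3, 91.1 and 83.3 in the mutant and 15.5, 19.8 and 11.1 in the wild type (log2 fold change 1.94, SE 0.17, limma adjusted p = 1.96e-06). Its wild-type mean log2 value of 4.66 was below the filter's limit, so it became a tested neighbour only through its mutant signals. Without the filter LEA was still called in limma (adjusted p = 0.00134). Other genes then became the nearest neighbours of AT2G21820, and 0 of them were called. The other 19 lay between −0.36 and 0.37. Between AT2G21820 and AT2G22780 the reference annotation has 129 loci, of which 24 were tested. Calls in limma numbered 0, with 3 genes at an unadjusted p under 0.05, and log2 fold changes ran from −0.38 to 0.37 around a median of 0.02.

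**Figure D4:**
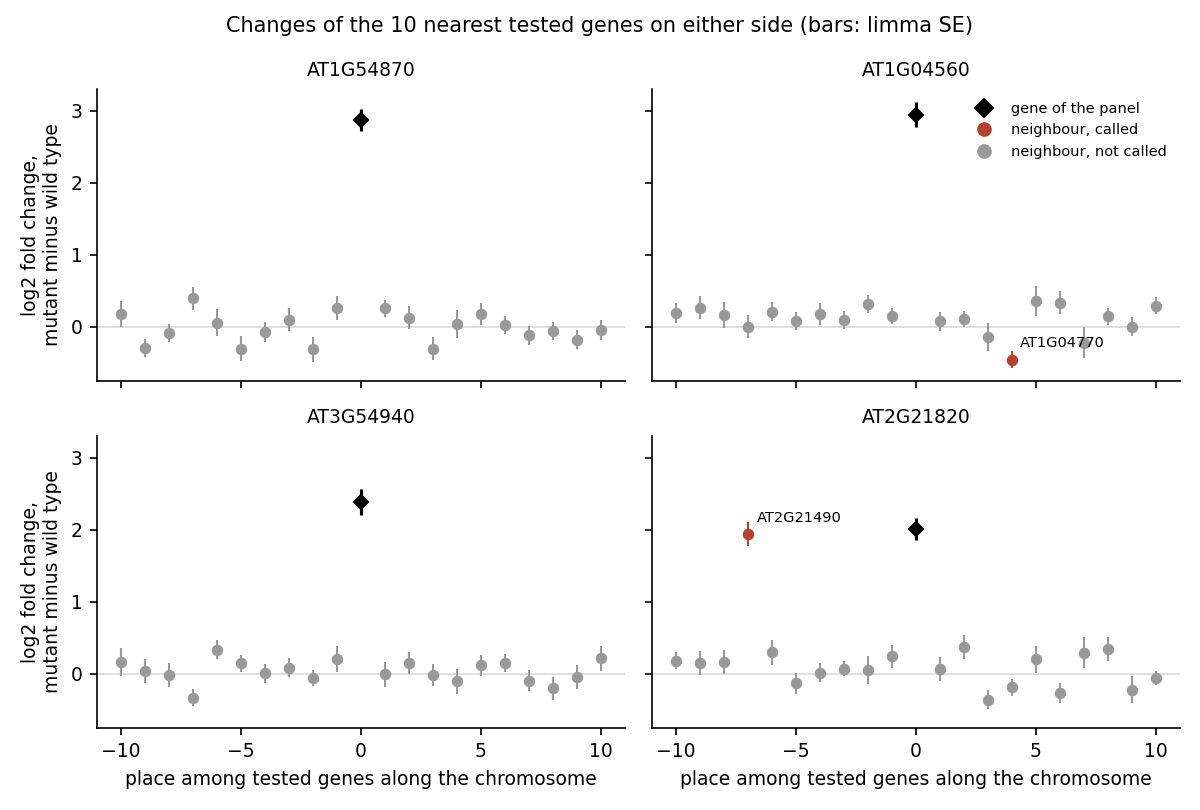
Log2 fold change (double mutant minus wild type, bars are limma SE) of each of the 4 genes (diamond) and the 10 nearest tested genes on either side, in chromosome order. The called neighbours (red) are AT1G04770 at −0.46 and AT2G21490 (LEA) at 1.94, and the others lie between −0.36 and 0.39.

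Array-wide facts that touch these values are few. The deposited signals had the same trimmed mean on each array, while median log2 values lay between 5.57 and 5.61 on the mutant arrays, against 5.46 to 5.54 on the wild-type arrays. Centring on the median lowered the fold changes of the 4 genes by 0.09 each, and quantile normalization by 0.05 to 0.07. With median centring 653 probe sets were called and 27.4% of them were higher in the mutant, against 516 and 51.7% at the deposited scaling. The disrupted genes had no probe set named for them, so the genotype labels were not checked on them.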

How the data were processed

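The authors deposited linear intensities, 1 per probe set and array, computed with MAS5, per the submitters' processing notes. MAS5 subtracts mismatch probes, which makes low signals noisy. Groups and replicate numbers came from the labels. Of 22810 probe sets, 64 controls were left out, and the 13648 with a mean log2(signal + 10) of at least the 40th percentile entered limma 3.58.1 in R 4.3.3 (lmFit and eBayes with an intensity trend, no covariate, all 6 arrays, two-sided, Benjamini-Hochberg adjusted p under 0.05). The fit was tested on simulated data. The annotation supplied with the values names 1 gene for 13513 probe sets, of which 13436 matched a TAIR10.1 locus by gene identifier, several for 503 and none here for 8730. A locus was represented by its brightest probe set, and no coordinates are given since the values name no build.

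The 4 genes and the 15 gene lists, with 268 other genes of which 113 had a probe set and 82 were tested, were chosen with earlier results of these data known. Genes were named by rule: the 4 genes, the 3 nearest profiles of each, called neighbours, all tested AWPM-19-like genes, and in each list up to 6 called genes by p, or the 4 smallest p where fewer than 4 were called. Further list genes are named only for their dimness. Promoter and protein sequences were not analysed here. The alternatives left out the pseudocount or doubled it, left out the filter or raised it to the 60th percentile, normalized by quantiles or by array medians, dropped the trend, made eBayes robust, added the replicate number as a block, averaged the probe sets of a locus, or omitted 1 array.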

Additional observations from a re-analysis of the deposited data

How the results depend on the processing

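All alternatives were planned. AT2G21820 fell below the stricter filter, and the analyses of promoters and proteins were not run. The cause of a change was not tested, also where fewer probe sets or arrays entered the fit. The log2 fold changes of the 4 genes moved by more than the spread between replicates only with the pseudocount. Without one they were 3.53 (AT1G54870), 3.40 (AT1G04560), 2.84 (AT3G54940) and 2.63 (AT2G21820), and with it doubled 2.47, 2.63 and 1.65 for AT1G54870, AT1G04560 and AT2G21820. Leaving out 1 array gave 274 to 702 called probe sets (343, 274 and 321 without mutant replicates 1, 2 and 3, 284 without wild-type replicate 3). There were 228 without the filter, 325 without the intensity trend and 686 with the replicate block. Deviations from group means correlated by 0.04, 0.17 and 0.13 between arrays of the same number, each array's highest value in the other group, but not over 0.1 for every pair, so the numbers were not taken to pair the arrays.

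Calls in the lists were few, and small shifts changed them. Papain-type proteases had 0 calls without the filter, under quantile normalization, after median centring and without the trend, and 0 to 2 with 1 array left out. Short-chain dehydrogenases had 1 increase without the filter, with the stricter filter and without the trend, 1 to 2 with 1 array left out, and 2 decreases after median centring. Protein breakdown genes had 0 without the filter, 2 with the replicate block, where DELTA-VPE passed, and 0 to 3 with 1 array left out. With the stricter filter 1 storage gene and 4 LEA genes were called. Without the filter 0 abscisic acid genes and 2 photosynthesis genes were called, and 2 photosynthesis genes without the trend. Around AT1G54870 1 and around AT2G21820 0 neighbours were called without the filter, where other genes become neighbours. Of 586 values for the 40 genes named by rule, 534 stayed on the same side of both 0 and the threshold. A call was lost in 33 and gained in 7, and the sign changed in 12. The sign changed in PRL (−0.0011 with quantile normalization, −0.046 with median centring, −0.0056 without mutant replicate 1, −0.080 without wild-type replicate 1, up to 0.17 without 1 of the others), EXPA18 (−0.045 with median centring, −0.043 to 0.18 with 1 array left out), ICL (0.050 with quantile normalization, −0.14 to 0.015) and AT5G18970 (−0.24 to 0.038).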
